A study of Oryctolagus cuniculus with 9 samples.

Results

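The genes that encode the laminin chains LAMA2, LAMA3, LAMA4, LAMA5, LAMB1, LAMB3 and LAMC1 and the nidogens NID1 and NID2 were followed in rabbit vocal fold tissue. They were chosen by gene symbol, as the rows of the deposited expression table that carry these 9 names, out of 20525 genes in the table. This choice, and that of the gene lists used below, was made with earlier results of these data known. Polyadenylated RNA from rabbits (Oryctolagus cuniculus) was sequenced in 9 libraries. There were 3 libraries of uninjured vocal folds (normal), 3 of injured folds that received no treatment (untreated) and 3 of injured folds treated with a hydrogel named SOT, a name the labels do not expand. Both injured groups were taken 1 week after injury, and the sources used here give no strain, age or sex. Nothing in the labels says whether the 3 libraries of a group came from different animals, and the p-values reflect only the scatter among these libraries, some of which may be technical.

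Basement membranes are thin sheets of matrix beneath epithelia and around vessels, muscle fibres and nerves. Their laminins are trimers of 1 alpha, 1 beta and 1 gamma chain that polymerise into a network bound to cells by integrins and dystroglycan, and nidogens bridge this network to collagen IV. The alpha chain gives a basement membrane much of its tissue identity: LAMA2 is the chain of muscle fibres and peripheral nerve, LAMA3 that of stratified epithelium, LAMA4 that of vessels, and LAMA5 is found in many epithelia and in vessels. In the vocal fold the epithelial basement membrane anchors a stratified epithelium to the lamina propria, the layer that vibrates in phonation.

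Levels below are normalised counts, which are counts scaled to library size (CPM) after library scaling with edgeR's trimmed mean of M values. Fold changes are on the log2 scale with their standard error (SE). Adjusted p-values come from edgeR's quasi-likelihood test with Benjamini-Hochberg adjustment over the 17344 genes that were tested, and a gene is called higher or lower where the adjusted p is under 0.05. All 9 genes passed the filter on low counts, with counts from 814 (LAMA2, its lowest library) to 33410 (LAMA3, its highest library).

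The genes lie at separate places of the build OryCun2.0, and each row covers a whole gene model, with no split by exon or untranslated region. LAMA2 (chromosome 12, 118811865 to 119513495, plus strand) and LAMA4 (chromosome 12, 99897333 to 100054763, minus strand) share a chromosome. LAMA3 is on chromosome 9 at 64874314 to 65128315 on the plus strand. LAMB1 is on chromosome 7 at 44458094 to 44532466 on the minus strand. LAMB3 (63027258 to 63067295) and NID1 (32162318 to 32237730) are both on the plus strand of chromosome 16, and NID2 is on the minus strand of chromosome 17 at 70920218 to 70996320. LAMA5 (1574 to 13062) and LAMC1 (191084 to 195639) are on unplaced scaffolds. The models of LAMA5, LAMB3 and NID2 are described as low quality, and the LAMC1 model, which spans 4556 bases, as partial.

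Some of these genes are split over 2 rows of the table. A second row, named only by a locus number, is LAMC1 by its RefSeq symbol, and another is described as nidogen-1, so that reads of LAMC1 and NID1 may be divided between their rows. The values of these second rows are given beside those of LAMC1 and NID1.

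Library totals ran from 44755718 to 45521838 counts (normal), from 49771566 to 50338111 (untreated) and from 48444181 to 49434268 (SOT). The cell type label reads histiocytes, but the libraries were rich in markers of other tissues: 10 skeletal muscle genes summed to between 22300 and 28040 CPM in normal folds, where the 3 macrophage genes CD68, CD14 and CSF1R summed to between 132 and 162 CPM, so the libraries are treated as whole tissue. Untreated replicate 3 lay between replicates 1 and 2 in 714 of 745 genes that differed more than 2-fold among the 3 untreated libraries at a mean above 5 CPM (95.8%). The highest such share for any library of the other groups was 41.9%. SOT replicate 3 had a mean correlation of 0.928 with the normal libraries, against 0.911 and 0.889 for SOT replicates 1 and 2. The labels do not settle whether untreated replicate 3 is an independent library; if it is not, the untreated group has fewer independent libraries than the n = 3 given here, and p-values that use it are too small. Where leaving out either of these libraries ends the call of a named gene or moves a count by over 1.5 times, that value is given. Shares over all genes set beside a count come from all 9 libraries. Without untreated replicate 3, 3145 genes in all were called between untreated and normal folds, against 5692 in all 9 libraries. A smaller count of a list in that fit is thus not read as particular to the list. The comparisons share libraries, since the untreated group is in 2 of them and the normal group in 2, so their values are set side by side and are not independent.

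The first comparison, untreated against normal, asked how basement membrane transcripts stood 1 week after injury. Of the 9 genes, 7 rose and 1 (LAMA2) fell, while NID1 did not pass the test. Over all genes tested, 32.8% were called in this comparison, 17.7% higher and 15.1% lower. The median log2 fold change was 1.12 over the 9 genes and -0.02 over all genes tested. The untreated and normal libraries did not overlap in any of the 9 genes, which was so for 55.1% of all genes. Since the 9 genes were chosen with earlier results known, these counts and medians describe them and test nothing. The other laminin chains in the table, given further below, did not share 1 direction. In bulk tissue, fewer cells of a type and less RNA per cell cannot be told apart, and this holds for every value below. The 9 cartilage markers summed to between 2247 and 4581 CPM in normal, 81.3 and 146.5 CPM in untreated and 126 and 537 CPM in SOT folds. The 10 markers of gland and ciliated epithelium summed to between 1761 and 11360, 1444 and 2896, and 1354 and 2899 CPM. The part of tissue make-up in the values below was not tested.

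**Figure D1:**
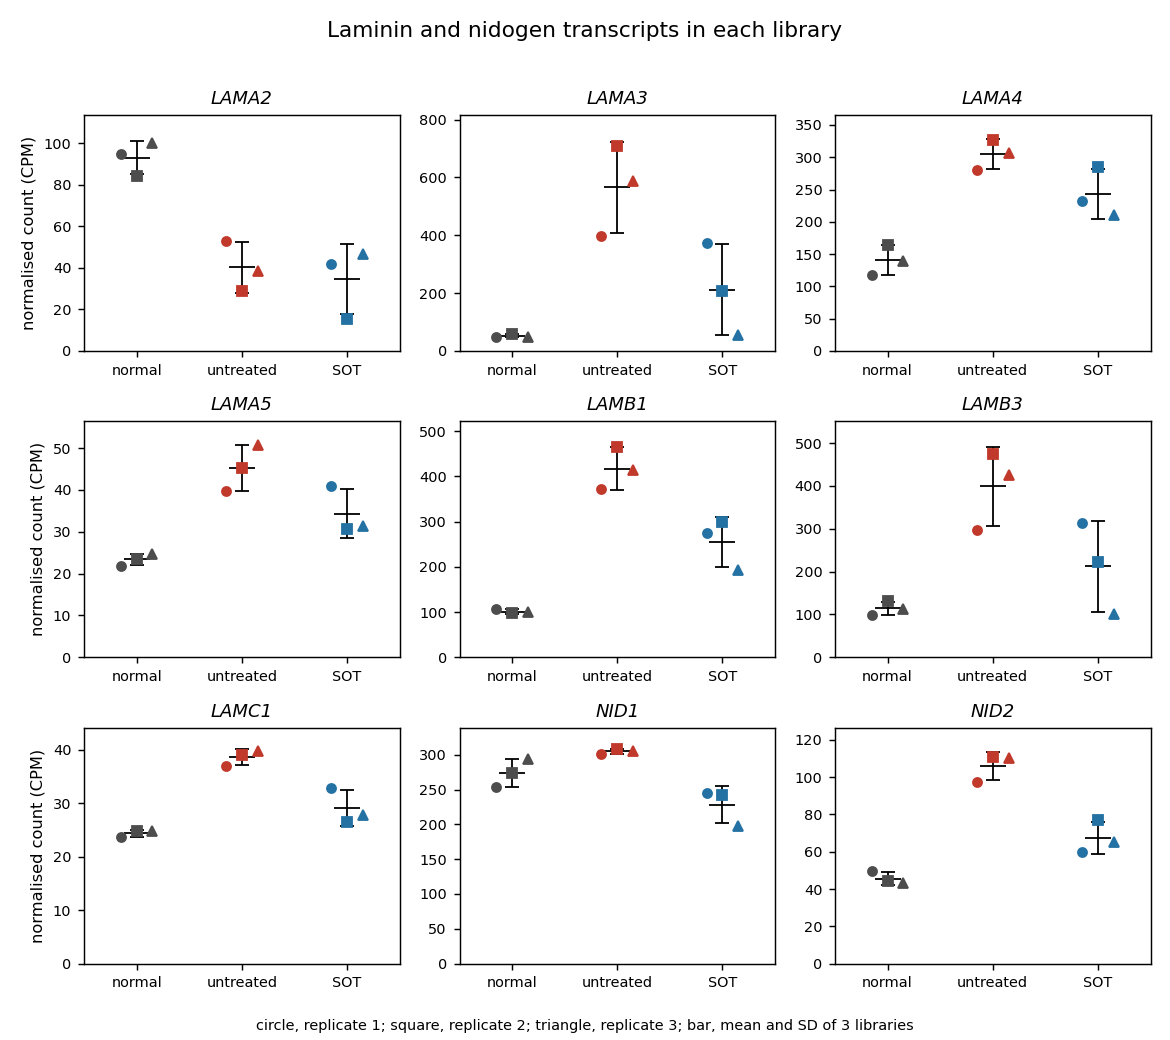
Normalised counts (CPM, y axis from 0) of the 9 genes in the normal, untreated and SOT libraries (x axis). Points are single libraries and bars are the mean and SD of 3 libraries; LAMA3 spreads from 55.9 to 372 CPM among the SOT libraries, while LAMC1 stays between 23.7 and 39.9 CPM in all 9.

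LAMA3, the alpha chain of the epithelial trimer that anchors basal cells through hemidesmosomes, had the largest change of the 9 genes. It was at 49.4, 58.3 and 49.6 CPM in the normal libraries, at 398, 709 and 589 CPM in the untreated ones and at 372, 208 and 55.9 CPM in the SOT ones. The untreated libraries lay far above the normal ones, and the SOT libraries spread from just below the untreated ones down to replicate 3, which was inside the normal range. LAMA3 rose 10.8-fold after injury without treatment (log2 fold change 3.43, SE 0.60, adjusted p = 0.00434, edgeR).

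LAMA2, the alpha chain of merosin, was at 94.7, 84.2 and 99.9 CPM in normal folds, at 53.1, 28.7 and 38.6 CPM in untreated folds and at 41.7, 15.2 and 46.7 CPM in SOT folds. Every injured library was below every normal one, and the 2 injured groups overlapped. LAMA2 was 2.31-fold lower in untreated than in normal folds (log2 fold change -1.21, SE 0.39, adjusted p = 0.0436, edgeR). This call was lost in 5 of 9 fits that left out 1 library, when any of normal replicates 1, 2 and 3 was left out (adjusted p = 0.0968, 0.0778 and 0.0890), or untreated replicate 2 (0.140) or 3 (0.126). Markers of skeletal muscle, which deposits this chain, moved with it. The 10 of 14 listed muscle genes in the table summed to 7529, 783 and 3113 CPM in the untreated libraries and to 8184, 1578 and 7995 CPM in the SOT libraries, and none of these genes was at 0 in any library. Replicate 2 had the lowest LAMA2 and the lowest muscle sum within each injured group. The 10 Schwann cell and nerve markers summed to between 755 and 1339 CPM in normal folds, between 95.03 and 169 CPM in untreated folds and between 125 and 290.2 CPM in SOT folds. The part of either tissue in the lower LAMA2 was not tested.

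LAMA4, the chain of vessel walls, was at 118, 164 and 139 CPM in normal folds and at 280.0, 327 and 307 CPM in untreated folds. In SOT folds it was at 232, 286 and 210.2 CPM, above all normal libraries and overlapping the untreated range. LAMA4 rose 2.17-fold in untreated over normal folds (log2 fold change 1.12, SE 0.16, adjusted p = 0.00227, edgeR). The 11 endothelial markers of 12 listed that are in the table summed to between 530.1 and 875 CPM in normal folds, between 1628 and 1814 CPM in untreated folds, and 1883, 1110 and 698 CPM in SOT replicates 1, 2 and 3. Of these 11 markers, 6 rose in untreated folds and none fell, where 17.7% of all genes rose and 15.1% fell. Without untreated replicate 3, 4 of these markers rose, and without SOT replicate 3, 5 of these markers did. The 9 fibroblast markers summed to between 11180 and 13820 CPM in normal folds and between 42150 and 44170 CPM in untreated folds. In SOT replicates 1, 2 and 3 they summed to 18910, 38410 and 20460 CPM. Of these 9 fibroblast markers, 4 rose and 3 fell in untreated folds, and 4 rose and 1 fell without untreated replicate 3. The part of either cell type in the LAMA4 values was not tested.

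LAMA5 and LAMC1 had the lowest counts of the 9 genes in normal folds, LAMA5 at 21.9, 23.5 and 24.7 CPM. It was at 39.7, 45.2 and 50.8 CPM in untreated folds and at 41.0, 30.6 and 31.4 CPM in SOT folds. Both injured groups lay above the normal one and overlapped each other. The rise after injury without treatment was 1.93-fold (log2 fold change 0.95, SE 0.15, adjusted p = 0.00279, edgeR).

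Both beta chains rose. LAMB1, the beta chain of widest use, also found in vessel laminins, was at 106, 97.4 and 99.4 CPM in normal folds, at 372, 465 and 415 CPM in untreated folds and at 275, 299 and 193 CPM in SOT folds. The 3 groups did not overlap, with SOT between the other two. LAMB1 had the smallest adjusted p of the 9 genes in this comparison (4.13-fold, log2 fold change 2.05, SE 0.18, adjusted p = 0.000371, edgeR).

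LAMB3, the beta chain that is used only in the epithelial trimer, was at 98.9, 131 and 112 CPM in normal folds, at 297, 474 and 426 CPM in untreated folds and at 313, 222 and 102 CPM in SOT folds. SOT replicate 1 was within the untreated range, which no SOT library was for LAMA3, and SOT replicate 3 lay in the normal range, as for LAMA3. LAMB3 rose 3.50-fold in untreated over normal folds (log2 fold change 1.81, SE 0.37, adjusted p = 0.00840, edgeR).

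LAMC1, the gamma chain of most laminins, changed less than the beta chains. It was at 23.7, 24.9 and 24.8 CPM in normal folds, at 37.1, 39.0 and 39.9 CPM in untreated folds and at 32.9, 26.5 and 27.9 CPM in SOT folds. In this partial row the libraries of each group lay close together and the groups did not overlap. LAMC1 rose 1.58-fold after injury without treatment (log2 fold change 0.66, SE 0.11, adjusted p = 0.00331, edgeR). The second row that RefSeq names LAMC1 was more abundant, at 268 ± 10.7 CPM in normal folds, 371 ± 21.1 CPM in untreated folds and 327 ± 43.3 CPM in SOT folds (SD, n = 3). The SOT libraries of this second row, at 364, 337 and 279 CPM, overlapped both the normal and the untreated ones. Its log2 fold change from normal to untreated folds was 0.47 (adjusted p = 0.0217, edgeR), which passed in 5 of 9 fits without 1 library and had its highest adjusted p of 0.0817 without untreated replicate 3. The log2 fold change of both rows summed, an alternative added after the data were seen, was 0.49 (adjusted p = 0.0180, edgeR).

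The 2 nidogens, which bind the laminin gamma chain, differed in size of change. NID2 was at 49.7, 44.1 and 43.0 CPM in normal folds, at 97.4, 111 and 110.3 CPM in untreated folds and at 60.0, 76.8 and 65.0 CPM in SOT folds, again without overlap between groups. NID2 rose 2.33-fold in untreated over normal folds (log2 fold change 1.22, SE 0.12, adjusted p = 0.000599, edgeR).

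NID1 was at 253, 274 and 293 CPM in normal folds, at 301, 308 and 306 CPM in untreated folds and at 245, 242 and 198 CPM in SOT folds. The untreated libraries were a little above all others, by less than the test could call. Its log2 fold change from normal to untreated folds was 0.16 (95% interval -0.11 to 0.42, adjusted p = 0.332, edgeR). The second row described as nidogen-1 was at 57.9 ± 3.07 CPM in normal and 80.9 ± 3.06 CPM in untreated folds and rose by 0.48 on the log2 scale (adjusted p = 0.0123, edgeR, and 0.0540 without untreated replicate 3). With both rows summed, the log2 fold change of NID1 was 0.22 (adjusted p = 0.185). The log2 ratio of NID1 to NID2 in FPKM, the authors' count per length and depth, did not overlap between normal and either injured group, with 2.51 ± 0.21 in normal, 1.45 ± 0.09 in untreated and 1.69 ± 0.23 in SOT folds (SD, n = 3). An exact permutation test of 3 libraries against 3 gave p = 0.1 for both injured groups against normal, which is the smallest p this design allows (adjusted p = 0.263 over 21 tests of chain shares and ratios).

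The 7 rises in untreated folds passed in all 9 fits that left out 1 library. By edgeR, the largest of their adjusted p-values was 0.0326 (LAMB3) when untreated replicate 3 was left out and 0.00394 (LAMC1) when SOT replicate 3 was.

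**Figure D2:**
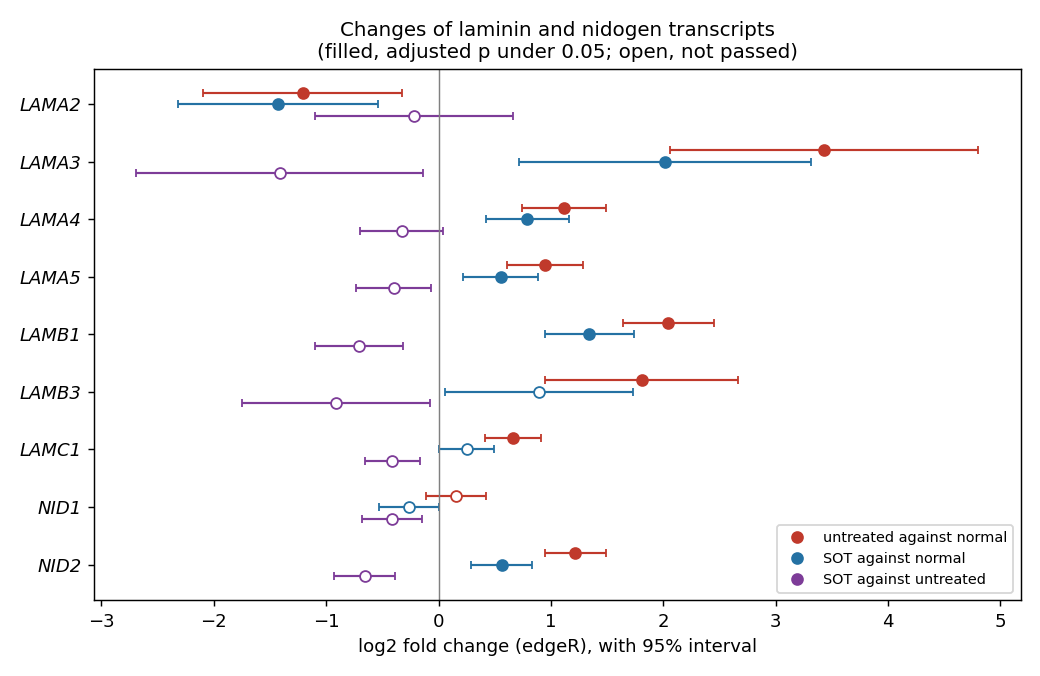
Log2 fold change of each gene in the 3 comparisons (x axis) with its 95% interval from edgeR. Filled points passed the test and open points did not; every SOT against untreated point is open and left of 0, and LAMA3 has the widest intervals.

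The second comparison, SOT against untreated, asked what differed with the hydrogel. None of the 9 genes passed the test in either direction with edgeR, where 0.0115% of all genes were called, all of them lower. At an unadjusted p under 0.05, 7 of the 9 were lower, against 7.59% of all genes, and DESeq2 called 4 lower, against 2.61% of all genes. All 9 fitted log2 fold changes were below 0, as were 48.4% of those of all genes, and the median was -0.42 over the 9 genes and 0.01 over all genes tested. The SOT and untreated libraries did not overlap in LAMA3, LAMB1, LAMC1, NID1 and NID2, which were lower, as were 12.4% of all genes.

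NID2 had the smallest p of the 9 genes, with a log2 fold change of -0.66 (95% interval -0.93 to -0.38, adjusted p = 0.124 by edgeR and 0.000622 by DESeq2). The other genes that DESeq2 called lower were LAMB1 (log2 fold change -0.71 by edgeR, adjusted p = 0.186 by edgeR and 0.0121 by DESeq2), LAMC1 (-0.41, 0.211 and 0.0161) and NID1 (-0.42, 0.230 and 0.0232). For the second rows of LAMC1 and NID1 the log2 fold changes were -0.18 (adjusted p = 0.582 by edgeR and 0.570 by DESeq2) and -0.72 (adjusted p = 0.0824 by edgeR and 2.03e-06 by DESeq2). The second NID1 row also passed with edgeR in 1 of 9 fits without 1 library (adjusted p = 0.0166). The summed LAMC1 rows had -0.20 and the summed NID1 rows -0.48 on the log2 scale, with adjusted p = 0.536 and 0.194.

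LAMA3 had the largest fitted difference, a log2 fold change of -1.42 with a 95% interval from -2.69 to -0.14 (adjusted p = 0.348, edgeR). That value was -0.93 without SOT replicate 3. LAMB3 had -0.91 (95% interval -1.75 to -0.07, adjusted p = 0.360, edgeR) and -0.54 without SOT replicate 3. LAMA5 had -0.40 (95% interval -0.73 to -0.06), LAMA4 -0.33 (95% interval -0.70 to 0.04) and LAMA2 -0.22 (95% interval -1.10 to 0.66), with adjusted p = 0.320, 0.444 and 0.849. The interval of LAMA2 is wide on both sides of 0, so a difference of this gene between the 2 injured groups was not resolved.

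The third comparison, SOT against normal, asked what still differed after treatment. Of the 9 genes, LAMA3, LAMA4, LAMA5, LAMB1 and NID2 rose, LAMA2 fell, and LAMB3, LAMC1 and NID1 did not pass. Over all genes tested, 16.7% were called, 9.01% higher and 7.67% lower. The counts of 5 and 1 became 3 and 0 when untreated replicate 3 was left out and 6 and 1 when SOT replicate 3 was. Over the fits that left out 1 library, 1135 to 3222 genes in all were called here, against 2894 in all 9 libraries. The median log2 fold change was 0.56 over the 9 genes and 0.02 over all genes tested. The mean of the SOT libraries lay between the normal and untreated means in 7 of the 9 genes, the exceptions being LAMA2 and NID1, whose SOT means were below both. SOT and normal libraries did not overlap in 7 of the 9 genes, the exceptions being LAMA3 and LAMB3, and 36.4% of all genes had no overlap.

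LAMB1 rose 2.53-fold (log2 fold change 1.34, SE 0.17, adjusted p = 0.00477, edgeR) and passed in all 9 fits that left out 1 library. LAMA4 rose by 0.79 (adjusted p = 0.0166, edgeR) and passed in 7 of 9, with 0.0590 without normal replicate 1 and 0.0517 without SOT replicate 2. NID2 rose by 0.56 on the log2 scale (adjusted p = 0.0183, edgeR) and passed in 8 of 9, with 0.0613 without normal replicate 2. LAMA5 rose by 0.55 (adjusted p = 0.0379, edgeR) and passed in 2 of 9, those that left out untreated replicate 1 or SOT replicate 3. By edgeR, its adjusted p was 0.058 without untreated replicate 3 and highest, at 0.118, without normal replicate 1.

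LAMA2 fell by 1.43 on the log2 scale, 2.69-fold (SE 0.39, adjusted p = 0.0408, edgeR). The call held in 4 of 9 fits and was lost without any of the 3 normal libraries (0.0826 to 0.102), without untreated replicate 3 (0.0714) and without SOT replicate 1 (0.0590). LAMA3 rose by 2.02 on the log2 scale, 4.05-fold (SE 0.57, adjusted p = 0.0444, edgeR), a call that held in 1 of 9 fits. That fit left out SOT replicate 3 and gave 2.50 with adjusted p = 0.00369. By edgeR, the adjusted p of LAMA3 was 0.0766 without untreated replicate 3 and highest, at 0.129, without normal replicate 1. LAMB3 had a log2 fold change of 0.90 (adjusted p = 0.126, edgeR) and rose by 1.26 without SOT replicate 3 (adjusted p = 0.0145). LAMC1 had 0.25 (95% interval 0.01 to 0.50, adjusted p = 0.141) and NID1 -0.26 (95% interval -0.53 to 0.01, adjusted p = 0.158), by edgeR.

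The alpha and beta chains of the epithelial laminin trimer, LAMA3 and LAMB3, were set side by side. Both had their highest normal value in replicate 2, their highest untreated value in replicate 2 and their lowest SOT value in replicate 3. Per length, LAMB3 exceeded LAMA3 between 7.51-fold and 8.50-fold in the normal libraries and between 2.50-fold and 2.79-fold in the untreated ones. In SOT replicates 1, 2 and 3 LAMB3 exceeded LAMA3 3.14-fold, 3.999-fold and 6.82-fold. The size of this ratio depends on the lengths used for the 2 gene models, which are not given. The gap between the 2 chains was thus narrower in all untreated libraries than in any normal one, and SOT replicate 3 came nearest to the normal libraries.

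The basal epithelial keratins KRT5 and KRT15 moved in opposite directions. KRT5 was at 1255, 1049 and 2003 CPM in normal folds, at 3024, 6415 and 5160 CPM in untreated folds and at 4119, 4336 and 2326 CPM in SOT folds, and it rose in untreated folds (log2 fold change 1.76, adjusted p = 0.0101, edgeR). KRT15 was at 1302, 957 and 1631 CPM in normal folds, at 399, 138 and 220 CPM in untreated folds and at 209, 230.4 and 825 CPM in SOT folds, and it fell in untreated folds (log2 fold change -2.36, adjusted p = 0.0197, edgeR, and 0.0778 without untreated replicate 3). TP63, the basal cell transcription factor, was at 124, 77.2 and 147 CPM in normal and at 83.2, 98.9 and 89.8 CPM in untreated folds and did not pass (adjusted p = 0.290, edgeR). The 12 of 14 listed markers of stratified epithelium in the table summed to between 12510 and 32150 CPM in normal folds, between 14250 and 15150 CPM in untreated folds and between 11510 and 17290 CPM in SOT folds. Of these 12, 2 rose and 1 (KRT15) fell in untreated folds, where 17.7% of all genes rose and 15.1% fell. Without untreated replicate 3, 2 of these markers rose and none fell. Their part in the chain values was not tested.

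**Figure D3:**
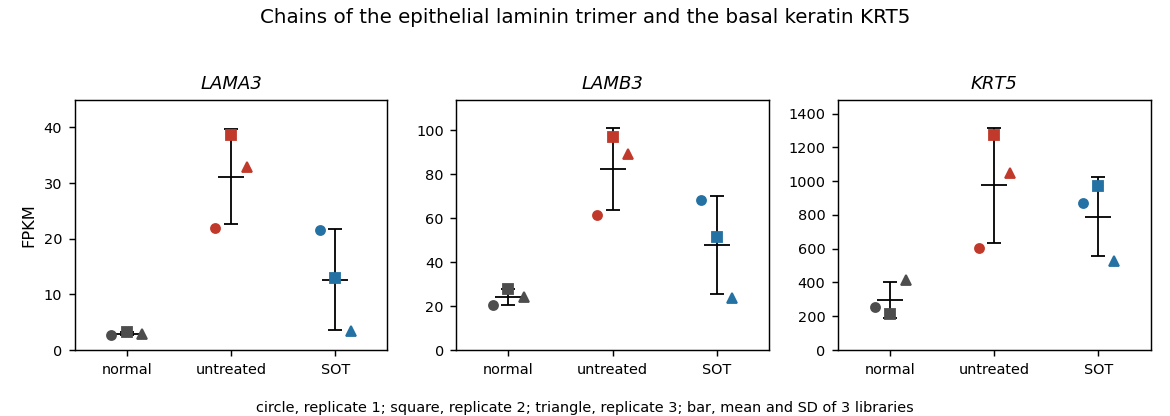
FPKM (y axis from 0) of LAMA3 and LAMB3, chains of the epithelial trimer, and of the basal keratin KRT5, by group (x axis). Points are single libraries and bars the mean and SD of 3; all 3 genes are lowest in replicate 3 among the SOT libraries.

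The make-up of the alpha chains was read within each library as a share of the summed FPKM of LAMA1 to LAMA5, so that library scaling cancels. The length that FPKM used for each gene model is not given. The LAMA3 row holds 15 transcripts, and the LAMA4 and LAMA5 rows hold 1 each. The level of each share, and which chain is largest, thus depend on these models. LAMA4 held the largest share in all 9 libraries, with 54.0% ± 4.34 in normal, 49.4% ± 2.90 in untreated and 61.2% ± 10.1 in SOT folds (SD, n = 3). LAMA3 made up 7.70%, 7.65% and 7.09% of alpha chain transcripts in normal folds and 27.7%, 38.1% and 34.1% in untreated folds. In SOT folds its share was 29.3%, 18.0% and 6.59%, from within the untreated range to below the normal one. LAMA2 made up 21.98%, 16.4% and 21.3% in normal folds, 5.50%, 2.29% and 3.32% in untreated folds and 4.89%, 1.96% and 8.19% in SOT folds. LAMA5 held 15.98% ± 1.13 in normal, 12.9% ± 1.24 in untreated and 15.2% ± 2.52 in SOT folds. The untreated and normal groups did not overlap for LAMA1, LAMA2, LAMA3 and LAMA5, nor the SOT and normal groups for LAMA1 and LAMA2, with p = 0.1 each by the exact permutation test, the smallest p possible with 3 against 3, and adjusted p = 0.263 over the 21 tests.

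**Figure D4:**
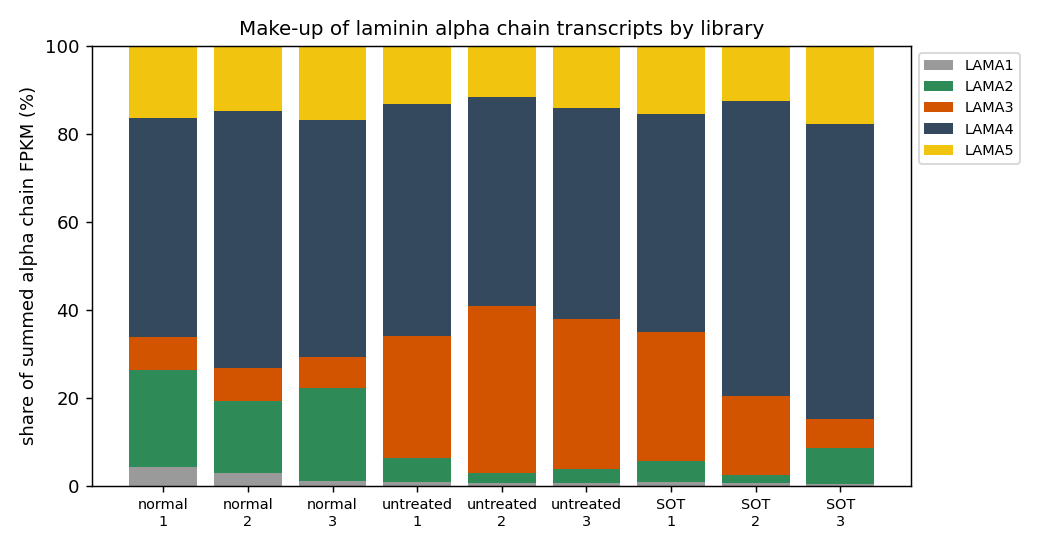
Share of each alpha chain in the summed alpha chain FPKM (y axis, percent) in each of the 9 libraries (x axis). LAMA3 takes 27.7% to 38.1% in untreated libraries against 7.09% to 7.70% in normal ones, and SOT replicate 3 has 6.59%.

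Per length, the order of the 9 genes differed between groups. The place of a gene in this order depends on the length used for its gene model, which is not given. In normal folds NID1 was highest (47.7 ± 4.17 FPKM, SD, n = 3), followed by LAMC1 (25.3 ± 1.01), LAMB3 (24.1 ± 3.55) and LAMA4 (21.5 ± 3.74), which did not differ from each other beyond their spread. LAMB1 came next at 15.3 ± 0.54 FPKM, then NID2 (8.38 ± 0.54) and LAMA2 (7.80 ± 0.71), which overlapped, LAMA5 (6.30 ± 0.47) and last LAMA3 (2.96 ± 0.30). In untreated folds LAMB3 (82.4 ± 18.7 FPKM) and LAMB1 (61.8 ± 6.57) overlapped at the top, NID1 followed at 51.9 ± 0.71 and LAMA4 at 45.5 ± 3.34. LAMC1 (39.0 ± 1.69) and LAMA3 (31.2 ± 8.52) overlapped, followed by NID2 (19.1 ± 1.38), LAMA5 (11.9 ± 1.55) and LAMA2 (3.30 ± 1.02). In SOT folds LAMB3 (47.8 ± 22.3), NID1 (42.8 ± 4.10), LAMB1 (41.7 ± 8.68) and LAMA4 (39.99 ± 6.81) each overlapped with the next, and LAMC1 was at 32.3 ± 2.48. NID2 (13.4 ± 2.06), LAMA3 (12.7 ± 9.08) and LAMA5 (9.92 ± 1.28) overlapped in turn, and LAMA2 was again last at 3.12 ± 1.53 FPKM. LAMC1 here is its partial row, and its other row was at 68.5 ± 2.83 FPKM in normal folds.

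The other laminin chains in the table did not share 1 direction. LAMB2 is a beta chain of muscle and vessel laminins that replaces LAMB1 in some mature basement membranes. It was at 529 ± 73.3 CPM in normal and 298 ± 37.3 CPM in untreated folds and fell by 0.83 on the log2 scale (adjusted p = 0.00766, edgeR). In SOT folds LAMB2 was at 354 ± 52.0 CPM, lower than normal by 0.58 on the log2 scale at adjusted p = 0.0478 (edgeR), a call that held in none of the 9 fits without 1 library (0.0867 without untreated replicate 3 and 0.123 without SOT replicate 3). LAMC3, a gamma chain of limited distribution, had 51.1 ± 5.63 CPM in normal and 8.69 ± 5.05 CPM in untreated libraries and fell (log2 fold change -2.55, adjusted p = 0.00555, edgeR). LAMA1, the embryonic alpha chain, was at 11.6 ± 6.38 CPM in normal and 6.82 ± 1.07 CPM in untreated folds and did not pass (adjusted p = 0.281, edgeR). Of 9 tested genes in the list of other laminins and the related netrins, 2 rose and 4 fell in untreated folds. The shares over all genes were 17.7% and 15.1%. Without untreated replicate 3 the counts were 1 and 2, where 3145 genes in all were called, against 5692 in all 9 libraries. None of the 9 passed between SOT and untreated folds. Against normal folds, 1 rose and 2 fell in SOT folds, where 9.01% of all genes rose and 7.67% fell. Without either untreated replicate 3 or SOT replicate 3 these counts were 1 and 1.

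Among 26 tested collagens and proteoglycans of basement membranes, 10 rose and 8 fell in untreated folds, where 17.7% of all genes rose and 15.1% fell. Without untreated replicate 3 these counts were 8 and 7, where 3145 genes in all were called, against 5692 in all 9 libraries. COL7A1, which forms the anchoring fibrils beneath the epithelial laminin, rose from 72.2 ± 8.21 to 690 ± 67.3 CPM (log2 fold change 3.26, adjusted p = 0.000219, edgeR). COL4A1 and COL4A2, the collagen IV chains that nidogens tie to laminin in most basement membranes, rose by 2.99 and 2.95 on the log2 scale. COL4A6, a chain of epithelial and smooth muscle collagen IV, fell by 3.06 (adjusted p = 0.00225, edgeR). In SOT folds against untreated ones none of the 26 passed. COL7A1 had the smallest p of this list there, with 617, 750 and 702 CPM in untreated and 373, 286 and 201 CPM in SOT libraries and no overlap (log2 fold change -1.27, adjusted p = 0.112 by edgeR and 2.26e-05 by DESeq2). Without SOT replicate 1 it passed with edgeR, at adjusted p = 0.0195. Against normal folds, 8 of the 26 rose and 5 fell in SOT folds, where 9.01% of all genes rose and 7.67% fell. The counts were 7 and 4 when untreated replicate 3 was left out and 7 and 7 when SOT replicate 3 was. COL4A1, COL4A2 and COL7A1 were higher in SOT than in normal folds by 2.51, 2.42 and 1.99 on the log2 scale.

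Among 21 tested laminin receptors and linkers, 8 rose and 6 fell in untreated folds, where 17.7% of all genes rose and 15.1% fell. Without untreated replicate 3 these counts were 6 and 2, where 3145 genes in all were called, against 5692 in all 9 libraries. ITGA2, an integrin chain that binds collagens and laminins, had 23.0 ± 1.85 CPM in normal libraries, 97.1 ± 34.1 CPM in untreated ones, and rose (log2 fold change 2.08, adjusted p = 0.00321, edgeR). MCAM, an adhesion molecule of vessels that binds LAMA4 trimers, rose by 1.25 (adjusted p = 0.0227, edgeR), but not when normal replicate 1 (0.0663), normal replicate 3 (0.0748), untreated replicate 2 (0.0687) or untreated replicate 3 (0.0710) was left out. The sarcoglycan SGCA, which belongs to the muscle dystroglycan complex that binds LAMA2 trimers, fell by 1.96 on the log2 scale (adjusted p = 0.0322, edgeR). This call was lost without any of the 3 normal libraries, without untreated replicate 2 and without untreated replicate 3, where the adjusted p was 0.110. None of the 21 passed between SOT and untreated folds. Against normal folds, 5 rose and 2 fell in SOT folds, where 9.01% of all genes rose and 7.67% fell. The counts were 2 and 1 when untreated replicate 3 was left out. ITGA3, a receptor chain for LAMA3 and LAMA5 trimers, rose by 1.12 (adjusted p = 0.00939, edgeR).

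**Figure D5:**
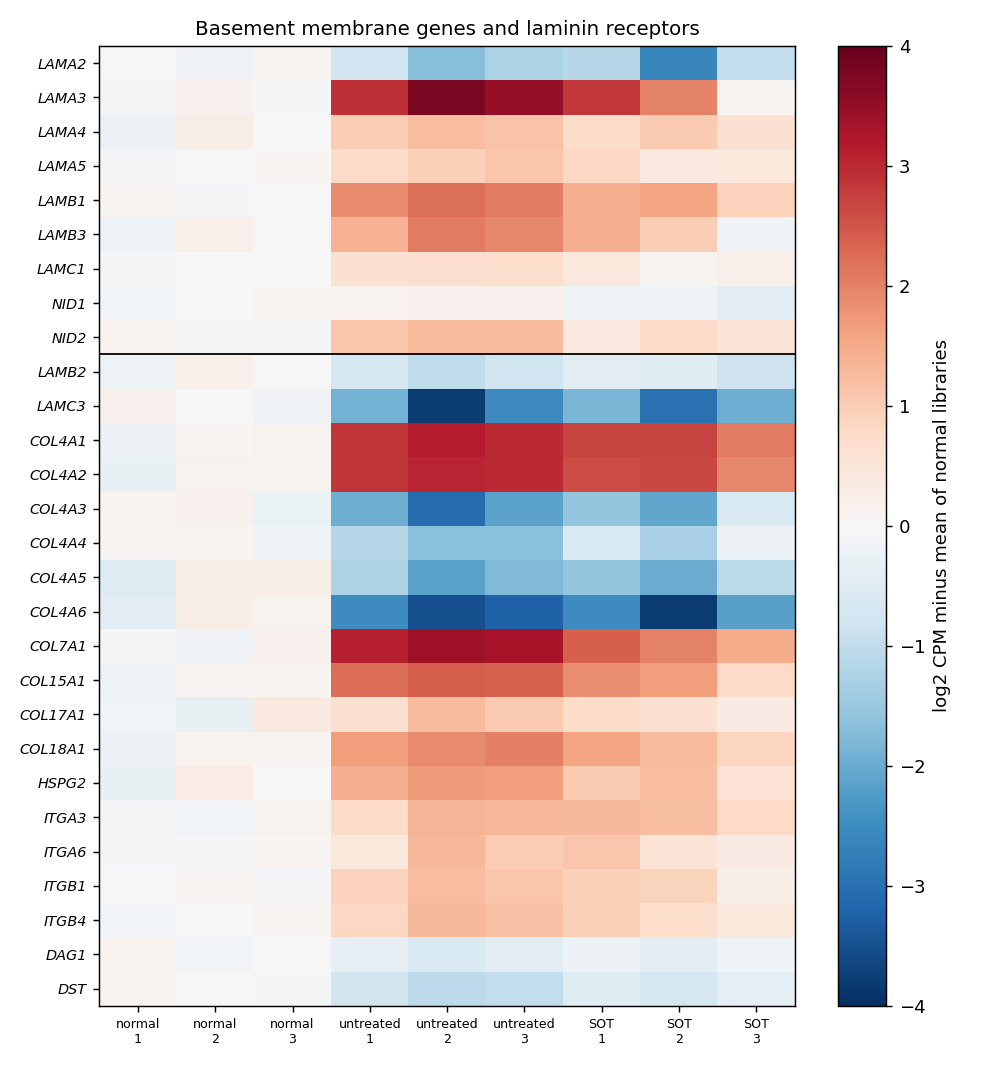
Log2 CPM of the 9 genes (above the line) and of other basement membrane and receptor genes (below it, a selection made after their values were seen), minus the mean of the normal libraries, in each library (x axis). COL4A1 and COL4A2 are red and COL4A3 to COL4A6 blue in the untreated libraries, and LAMA3 is palest in SOT replicate 3 among the injured libraries.

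For each of the 9 genes, up to 2 genes with a symbol whose pattern over the 9 libraries was most like it were found by the root mean square difference of centred log2 CPM. These are descriptions over libraries that share their groups, and no test was made. LAMB1 was closest to SLC46A1, at 0.114, and to BMP1, a protease that processes procollagens and laminin chains, at 0.117. BMP1 rose from 98.6 CPM in normal to 424 CPM in untreated folds and averaged 252 CPM in SOT folds. LAMA3 was closest to IDO2 (0.237) and PYGL (0.248), LAMB3 to IFNGR1 (0.183) and ACVRL1 (0.192), and LAMA2 to PGM1 and DUSP10 (0.225 each). LAMA4 lay close to MAN1C1 (0.0494), LAMA5 to RASA2 (0.0578) and GPX1 (0.0629), and LAMC1 to PRKCD (0.0486) and MAPK14 (0.0665). NID1 was closest to CYP20A1 (0.0677) and MTMR6 (0.0842), and NID2 to TUBB (0.128) and PTGFRN (0.137). Over all tested genes with a symbol, the 9 genes left out, the median difference was 1.58 from LAMA3 and 0.398 from NID1, the highest and lowest. LAMA3 and NID1 also had the largest and smallest SD of log2 CPM over the libraries among the 9 genes (1.64 and 0.211).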

How the data were processed

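The authors deposited 1 table of 20525 genes, which holds a whole-number count and an FPKM value for every gene and library (per the file headers), gene positions and descriptions. The submitters' processing notes name cutadapt 1.9, HISAT2 2.0.4, StringTie 1.3.4d and edgeR with the build OryCun2.0, without saying which did what. Strandedness and the treatment of multiply matching reads are not stated there. Reads shared by the 2 rows of LAMC1 or of NID1 could be split between them.

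For the fits, edgeR 4.0.16 in R 4.3.3 was run on the deposited counts (filterByExpr, TMM scaling, quasi-likelihood test, 1 mean per group over 9 libraries, 3 contrasts). The main fit did not pair libraries by replicate number, since the labels give these numbers no shared source. Deviations from the group means correlated from -0.0484 to 0.267 between same-numbered libraries and from -0.276 to 0.174 between differently numbered ones. With 3 libraries a group, these values cannot settle whether the numbers pair libraries. Alternatives used limma 3.58.1 on log2(FPKM + 0.1) and log2(FPKM + 1), DESeq2 1.42.0, other scalings, no filter, only 2 groups, a replicate block and each library left out. Chain shares came from the deposited FPKM values and were tested by two-sided exact permutation with scipy 1.17.1. The edgeR fit was run on simulated counts, for untreated against normal alone. These had independent libraries and the same setting for spread in every gene, which the real libraries need not have. The DESeq2 and limma fits were not run on simulated counts. Symbols for 595 of 5734 genes named by a locus number came from RefSeq (mOryCun1.1), used for names alone.

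The 9 genes and the gene lists were chosen with earlier results of these data known. The rule for named genes took the 9 genes, then per list and comparison at most 4 genes that passed, by size of change, or, with none passed, 2 by smallest p, and for each of the 9 genes the 2 most alike in pattern. Some genes that this rule names are not reported here.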

Additional observations from a re-analysis of the deposited data

How the results depend on the processing

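Of 162 fold changes of the 9 genes recomputed per comparison under 18 alternatives, 157 kept their direction and side of the threshold between untreated and normal folds, 156 between SOT and untreated folds and 128 between SOT and normal folds, where 31 calls were lost and 3 gained. The 7 rises in untreated folds passed under every alternative run. Between untreated and normal folds, the members called lower ranged from 0 to 1 and all genes called from 3145 to 6026 (without untreated replicate 3 and without SOT replicate 3) over the fits that left out 1 library, against 5692 in all 9 libraries. Upper quartile scaling moved the median of all genes to -0.11 there.

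Between SOT and untreated folds, 2 genes in all were called. The count was 1 with upper quartile scaling, 682 with DESeq2, 0 with limma on log2(FPKM + 0.1), 27 with limma on log2(FPKM + 1), 0 with only the 2 groups, and 0 to 397 over the fits without 1 library (the highest without SOT replicate 1). DESeq2 called 4 members lower. LAMA2 ranged from -0.46 to 0.15 on the log2 scale, above 0 without untreated replicate 1 or SOT replicate 2. The difference in share ranged from -0.196 to 0.0376 percentage points for LAMA1 and from -0.280 to 2.83 for LAMA2, and that of LAMA5 between SOT and normal folds from -1.96 to 0.554. Between SOT and normal folds, where 5 members were called higher, 1 lower and 2894 genes in all, the fit of only the 2 groups called 2, 0 and 1578. DESeq2 called 4809 genes. Without 1 library the counts were 2 to 6, 0 to 1 and 1135 to 3222. The cause of these shifts was not tested, and the fits without 1 library or with 2 groups also hold fewer samples.

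With the replicate number as a block, 0 genes were called between SOT and untreated folds and 3 members were higher in SOT than normal folds, with LAMA3 (adjusted p = 0.0875) and LAMA5 (0.0678) lost. The labels give these numbers no shared source, so this is not read as a weaker effect. Counts divided by gene length were not run, because the table gives no lengths.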

Other observations

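Enzymes that cut basement membranes rose together with the laminins in untreated folds. Of 11 tested proteases listed for this role, 9 rose and none fell against normal folds, where 17.7% of all genes rose. MMP9, a gelatinase that cleaves collagen IV, rose from 2.78 ± 1.65 to 223 ± 56.1 CPM (SD, n = 3, log2 fold change 6.32, adjusted p = 0.00249, edgeR). MMP3, the stromelysin that cleaves laminin and nidogen among other substrates, rose from 9.09 ± 0.41 to 342 ± 50.4 CPM (adjusted p = 0.00691, edgeR). MMP14, a membrane-bound matrix protease, rose by 3.12 and PLAT, the tissue plasminogen activator, by 2.93 on the log2 scale. In SOT folds, 7 of the 11 rose over normal (10 without SOT replicate 3), where 9.01% of all genes rose. None of the 11 passed against untreated folds, where CTSS, a lysosomal cysteine protease, had the smallest p (412 ± 42.1 CPM in untreated and 225 ± 46.3 CPM in SOT folds, adjusted p = 0.160 by edgeR and 0.00443 by DESeq2). Markers of macrophages and neutrophils moved the same way. The 7 of 8 listed macrophage markers in the table summed to between 231 and 276 CPM in normal folds, between 1230.0 and 1434 CPM in untreated folds and between 442 and 788 CPM in SOT folds. The 6 neutrophil markers summed to between 165 and 596 CPM in normal folds, between 3541 and 5266 CPM in untreated folds and between 916 and 3498 CPM in SOT folds, and their part was not tested.

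Among enzymes that glycosylate dystroglycan so that it can bind laminin, B4GAT1, which primes the laminin-binding glycan, fell from 38.6 ± 6.71 to 21.0 ± 3.76 CPM in untreated folds (SD, n = 3, log2 fold change -0.88, adjusted p = 0.00722, edgeR). It passed in all 9 fits that left out 1 library. In SOT folds it was again below normal, by 0.68 on the log2 scale (adjusted p = 0.0329, edgeR), which held in 3 of these 9 fits and was lost without untreated replicate 3 (0.0597) and without SOT replicate 3 (0.0596).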
